A study of Mus musculus with 6 samples.

Results

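The aryl hydrocarbon receptor (AHR) pathway was described in mouse liver through 7 genes, Ahr, Arnt, Ahrr, Tiparp, Cyp1a1, Cyp1a2 and Cyp1b1, out of 22911 genes that could be named on the array. The genes were chosen by name, and their members on the array were all probes that carried a RefSeq accession of a listed gene, 9 probes in all. Ahrr and Arnt had 2 probes each and the other genes had 1 each. The livers came from 6 male mice, 1 array per mouse, which were 12 weeks old when put on the diets per the study's methods: 3 controls fed 100% regular granulated chow and 3 soy-fed mice fed chow with 75% regular food and 25% soy bean, each for 4 weeks. All samples were pieces of the right hepatic lobe, the labels name no mutation or drug for either group, and the strain is not given in the sources used here. As soy supplies isoflavones, plant flavonoids of a class that can bind AHR, the comparison asks whether the transcripts of the receptor's pathway differed between the diets.

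AHR is a ligand-activated transcription factor that waits in the cytosol with the chaperone Hsp90 and its helpers. Once a ligand such as a dioxin, a tryptophan metabolite or a plant flavonoid is bound, AHR enters the nucleus, pairs with ARNT and binds DNA elements with the core letters GCGTG. Its classical targets in hepatocytes are the cytochrome P450 enzymes of family 1 and its own brakes, the repressor Ahrr and the ADP-ribosyltransferase Tiparp.

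The core letters were looked for, on both strands, in the RefSeq promoter windows (build GRCm38.p6), which run from 250 bases before to 50 bases after an annotated start. Windows were given for 6 of the 7 genes, all but Ahr. GCGTG stood in 32.4% of all 32851 windows, so that a match alone is common, while the longer form TNGCGTG, which contains it, stood in 5.07%. The windows of the target genes Cyp1a1, Cyp1b1, Tiparp and Ahrr each held the core, and 1 match of each is printed because these are the transcripts on which AHR activity is usually read. The core is in capitals, with 10 bases on either side, read on the strand that carries GCGTG.
Cyp1a1 (chr9:57697549-57697573, + strand, core 54 bases before the start): agataaggagGCGTGgccaacagac
Cyp1b1 (chr17:79715123-79715147, + strand, opposite to the gene, core 76 bases before the start): agggggtgggGCGTGaggggcggga
Tiparp (chr3:65528267-65528291, - strand, opposite to the gene, core 170 bases before the start): cctcccgtgcGCGTGctccggacgg
Ahrr (chr13:74292344-74292368, - strand, core 27 bases before the start): ggggcggctcGCGTGctggggtggg
The Ahrr match was the only member match of the longer form, and the Ahrr window held 3 matches of the core in all. The Arnt window held 1 match and the Cyp1a2 window none. Cyp1a2 lies next to Cyp1a1 on chromosome 9, and the best known elements of that pair lie farther from the starts than these windows reach.

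No AHR pathway gene passed the test for a difference between the diets. A probe passed with an adjusted p under 0.05 (limma, Benjamini-Hochberg over all probes) and a soy-to-control fold above 1.5 or under 0.66. Over the whole array 198 of 56605 probes passed (0.350%), of which 59.6% were higher in soy-fed livers, and 0.532% of named genes had a probe that passed. Among the 9 member probes 0 passed, 1 had an unadjusted p under 0.05, against 11.5% of all probes, and the smallest adjusted p was 0.420. All values are log2 normalised signals, and a level is compared between arrays for the same probe or the same sum of probes, never between genes. The 3 control arrays had 37010, 36366 and 38163 spots well above background, against 31308, 31988 and 32498 on the soy arrays, and the median signal of the negative control spots was 76.5, 73 and 71 against 95, 81 and 76. The part of this difference in the values of dim probes was not tested. The arrays lay on 3 slides. Control 1, control 2 and soy 1 shared a slide, control 3 and soy 3 another, and soy 2 was alone.

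**Figure D1:**
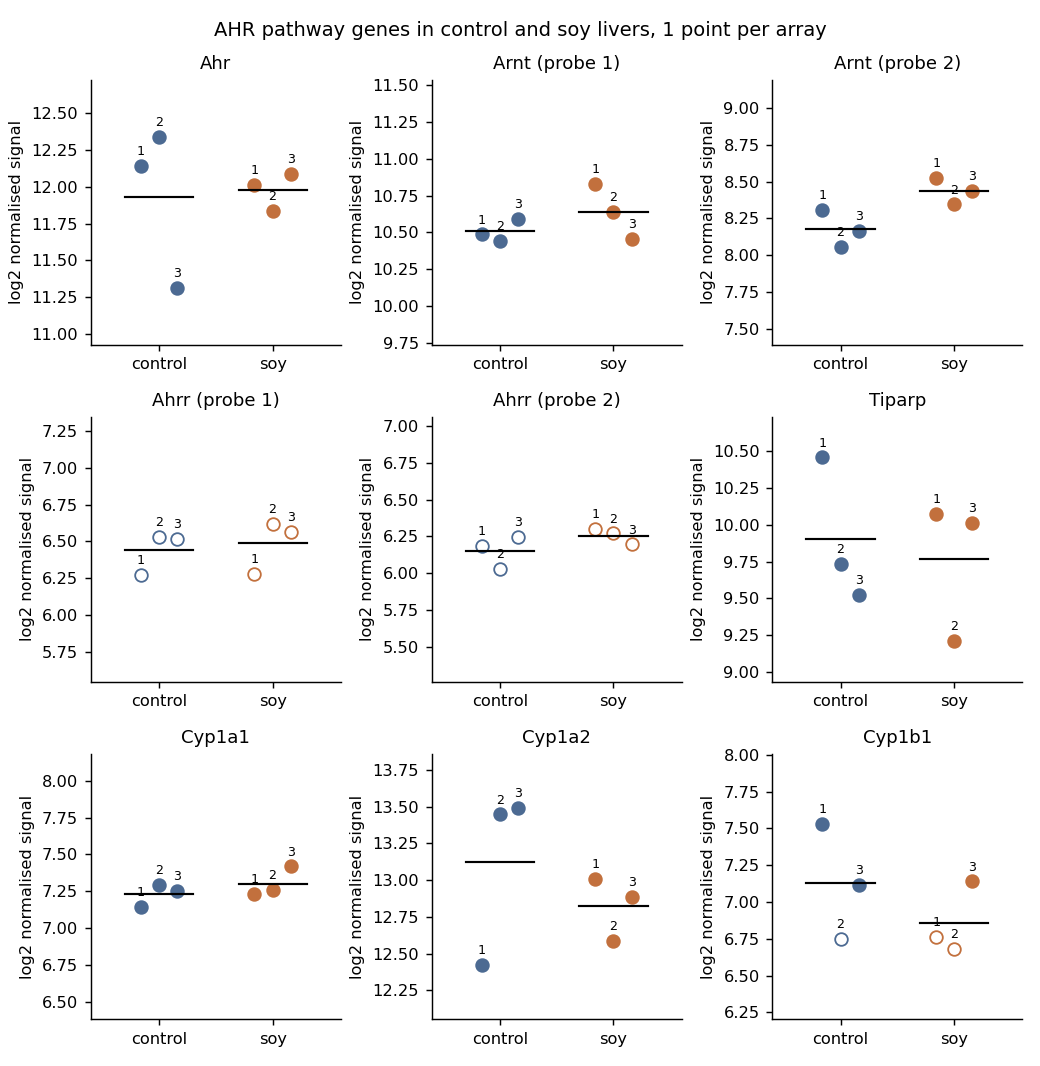
Log2 normalised signal (y axis, each panel spanning the same range) of the 9 AHR pathway probes in control and soy-fed livers. Each point is 1 array, numbered by replicate, filled where the spot was well above background and open where it was not, and each line is a group mean. Only the second Arnt probe has all soy arrays above all control arrays, and both Ahrr probes are open throughout.

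The receptor itself was well above background on all 6 arrays. Ahr (NM_013464) had log2 signals of 12.14, 12.34 and 11.31 in controls 1 to 3 and 12.01, 11.84 and 12.09 in soy livers 1 to 3. The soy livers lay within 0.25 of each other, whereas control 3 lay well under the other two controls. The means were 11.93 ± 0.54 and 11.98 ± 0.13 (SD, n = 3 each), a change of 0.047 (SE 0.25) or 1.03-fold, with a 95% interval from 0.69 to 1.55-fold (limma adjusted p = 0.962). The sign of this value was not stable: the change was -0.26 without control 3 and -0.0070 without soy 3, and it was 0.77 on the slide that holds both, against -0.23 on the slide with controls 1 and 2.

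Arnt (NM_001037737), the partner with which AHR binds DNA, was measured by 2 probes that were well above background throughout. Its brighter probe read 10.49, 10.44 and 10.59 in controls and 10.83, 10.64 and 10.45 in soy livers, and the groups overlapped. The change was 0.13 (SE 0.12), or 1.1-fold with an interval from 0.902 to 1.33 (adjusted p = 0.724), and it was 0.040 without soy 1 and 0.23 without soy 3. The dimmer probe read 8.31, 8.06 and 8.16 in controls and 8.53, 8.35 and 8.44 in soy livers, with every soy array above every control array. On all probes of the array this pattern, in this direction, occurred in 7.75%, and groups without overlap in either direction in 18.0%. The change of the dimmer probe was 0.26 (SE 0.11), or 1.2-fold with an interval from 1.01 to 1.43, and its unadjusted p of 0.0446 became 0.420 after adjustment. Both intervals lay inside the fold thresholds, so with this processing a rise of 1.5-fold or a fall to 0.66 was outside the range that these arrays gave for Arnt. For the dimmer probe the interval reached 1.71 with the processed signal of the scanner software and 1.55 with the slide as a block. It reached 1.52 with arrays shifted to a common 75th percentile, with a background correction offset of 16 in place of 50, without control 1 or without soy 2.

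The brakes of the pathway follow. Ahrr (NM_009644), which competes with AHR for ARNT, was well above background on 0 arrays with either probe, so no fold is given. Its first probe read 6.27, 6.53 and 6.52 in controls and 6.28, 6.62 and 6.56 in soy livers, and its second 6.19, 6.03 and 6.25 against 6.30, 6.27 and 6.20. At this level the arrays do not show whether the transcript was there. Tiparp (NM_178892), which modifies AHR and is itself induced by it, was well above background throughout at 10.46, 9.74 and 9.52 in controls and 10.08, 9.21 and 10.01 in soy livers. Its arrays spread widely within both groups, which overlapped over most of their range. The change was -0.14 (SE 0.30), or 0.908-fold with an interval from 0.558 to 1.48 (adjusted p = 0.897), and its sign was not stable: it was 0.20 with the slide as a block and 0.14 without control 1 or without soy 2.

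The Cyp1 enzymes oxidise planar aromatic compounds, flavonoids among them, and Cyp1a1 is the most inducible AHR target in many tissues. Cyp1a1 (NM_009992) read 7.15, 7.29 and 7.25 in controls and 7.23, 7.26 and 7.42 in soy livers. The groups overlapped, and all 6 arrays lay close together. Means were 7.23 ± 0.075 and 7.30 ± 0.10 (SD, n = 3 each), a change of 0.073 (SE 0.10), or 1.05-fold with an interval from 0.893 to 1.24 (adjusted p = 0.830). The probe was well above background on every array but dim, with raw median signals between 147 and 188 over a local background between 54.5 and 65.5, and its value moved with the processing. With an offset of 16 in place of 50 the fold was 1.07 with an interval from 0.862 to 1.32. With the shift to a common 75th percentile, which kept the offset of 50, it was 1.19 with an interval from 1.0017 to 1.42 (adjusted p = 0.285). With the processed signal of the scanner software, which was put on that percentile too, it was 1.27 with an interval from 0.984 to 1.64 (adjusted p = 0.172), so that under this setting a 1.5-fold rise was inside the interval. The Cyp1a1 change was 0.015 without soy 3.

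Cyp1a2 (NM_009993), which hepatocytes express constitutively and mainly around the central vein, was well above background throughout. It read 12.43, 13.45 and 13.49 in controls and 13.01, 12.59 and 12.89 in soy livers. All 3 soy arrays lay between control 1, the lowest of the 6, and controls 2 and 3. The means were 13.12 ± 0.60 and 12.83 ± 0.22 (SD, n = 3 each), a change of -0.29 (SE 0.28), or 0.816-fold with an interval from 0.518 to 1.29 (adjusted p = 0.743). The range of the 3 controls, 1.06, was wider than that of 96.4% of the 13500 genes that were well above background on all arrays. The same share was 96.0% for Ahr and 94.9% for Tiparp. The size of the Cyp1a2 value depended on single controls. Without control 1 the fold was 0.642 with an interval from 0.50 to 0.824, which still did not pass (adjusted p = 0.216), whereas without control 2 it was 0.914 and without control 3 it was 0.927. Within slides the change was 0.074 where soy 1 met controls 1 and 2, and -0.60 where soy 3 met control 3.

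Cyp1b1 (NM_009994), the member of the family found mainly outside hepatocytes, was well above background on 2 control arrays and 1 soy array. It read 7.53, 6.75 and 7.12 in controls and 6.76, 6.68 and 7.14 in soy livers, with control 1 above the rest and the groups overlapping. The fitted change was -0.27 (SE 0.21), or 0.828-fold with an interval from 0.587 to 1.17 (adjusted p = 0.677), but with most soy arrays not well above background its size is uncertain. It also moved with the setting: the Cyp1b1 fold was 0.951 without control 1 and 0.725 without control 2 (interval from 0.526 to 0.999), and the change was -0.049 with the 75th-percentile shift and -0.52 with the processed signal. Stellate cells and fibroblasts are a known source of Cyp1b1, and in a bulk liver sample fewer cells of a type and less RNA per cell cannot be told apart. Of 7 marker genes of these cells 0 passed and 6 had a change under 0, as had 51.2% of all genes, with a median change of -0.17. The signals of these probes, a sum in which the probe of the decorin gene Dcn weighed most, came to 43962, 37652 and 41264 in controls and 35632, 35751 and 39450 in soy livers. Control 1 was again the highest array for the collagen genes Col1a1 and Col3a1, whose changes of -0.99 and -0.94 had adjusted p of 0.317 and 0.271 and were -0.61 and -0.66 without that array. The intermediate filament gene Des, the marker whose change was not under 0, was well above background on 0 soy arrays. Des read 7.08, 7.05 and 7.06 in controls and 7.34, 6.97 and 6.90 in soy livers. The vitamin A enzyme Lrat was at -0.029 (adjusted p = 0.976), a value whose sign turned with the processed signal, the percentile shift and the slide block. The part of stellate cell content in the Cyp1b1 value was not tested.

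**Figure D2:**
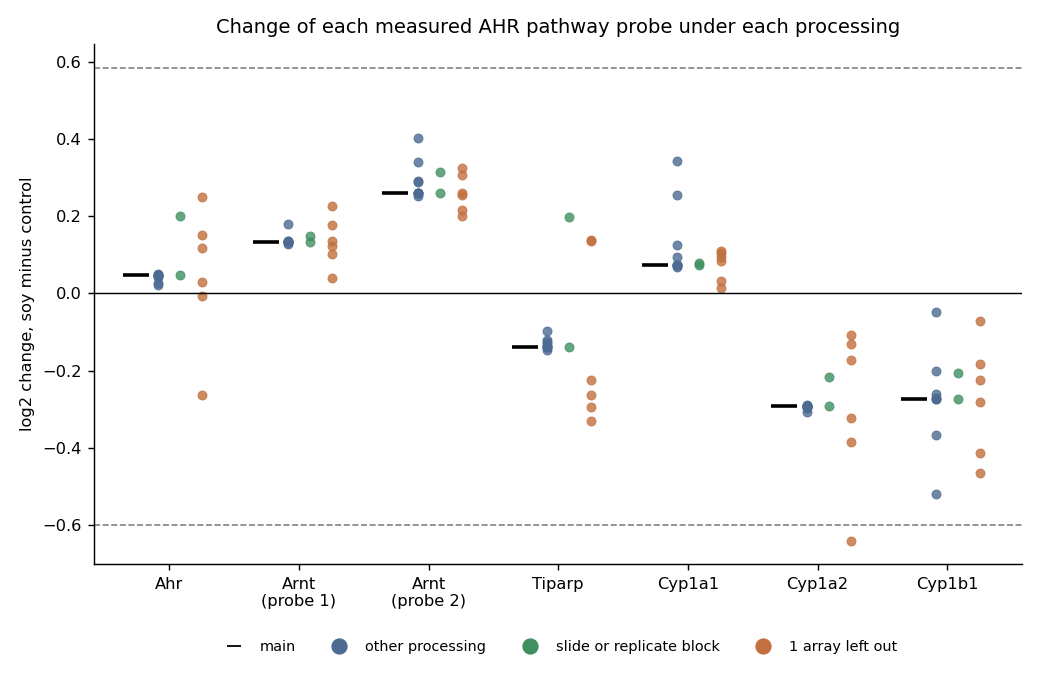
Log2 change of each measured AHR pathway probe, soy minus control (y axis), with the reported value as a black bar and a point for each alternative processing, block or left-out array. Dashed lines mark the fold thresholds of 1.5 and 0.66. Ahr and Tiparp cross 0, and only Cyp1a2 without control 1, at -0.64, lies beyond a threshold.

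The genes with the patterns most like those of Cyp1a2 and Ahr were looked up, so that the arrays on which they were high or low are fixed by this choice. Patterns over the 6 arrays, centred on each gene's own mean, were compared by their root mean square difference in log2 signal among 13499 other genes. Those nearest to Cyp1a2 were the kinase gene Nuak2, the lipoprotein receptor Vldlr and the Rab regulator Rab3gap1, at differences of 0.084, 0.11 and 0.14. Nuak2, for example, read 9.65, 10.76 and 10.65 in controls and 10.40, 9.95 and 10.26 in soy livers. Nearest to Ahr were Lrrc32, which holds latent TGF-beta at the cell surface, Sipa1l3 and the transporter gene Slc7a4, at 0.074, 0.11 and 0.11. Lrrc32 read 11.14, 11.29 and 10.11 in controls and 10.84, 10.65 and 10.96 in soy livers.

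Genes around the receptor were then described by lists. The chaperones that hold AHR in the cytosol, Hsp90aa1, Hsp90ab1 and Ptges3, were listed together with Stub1. Of these 4 genes 0 passed, with a median change of 0.0083, against -0.0056 over all genes. The largest values were 0.15 for Stub1, the ubiquitin ligase CHIP (adjusted p = 0.655), and 0.070 for the inducible Hsp90 gene Hsp90aa1 (adjusted p = 0.923), and the smallest was -0.054 for Hsp90ab1. The Stub1 change was between 0.073 and 0.21 with 1 array left out. Among Hif1a, Epas1, Hif3a and Arnt2, which share ARNT as a partner or resemble it, 0 of 4 passed and the median change was -0.17. The hypoxia factor Epas1 read 15.10, 14.77 and 14.75 in controls and 14.70, 14.30 and 14.51 in soy livers, without overlap, with a difference of -0.37 (adjusted p = 0.394). All soy arrays were lower in 2 of these 4 genes, Epas1 and Arnt2, against 10.8% of all genes, and Arnt2 was well above background on 1 control array and 0 soy arrays. Hif1a, a relative of Epas1, was at 0.027 (adjusted p = 0.952).

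Of 9 coregulators 0 passed, with a median change of 0.13. Nrip1, a nuclear receptor corepressor, was higher on every soy array, at 9.98, 9.90 and 10.18 against 9.48, 9.55 and 9.62, a change of 0.47 (SE 0.11, adjusted p = 0.152). The acetyltransferase genes Crebbp and Ep300 were at -0.33 and 0.029 (adjusted p = 0.698 and 0.953). The Crebbp value was -0.028 without control 2, which read 11.45, and -0.62 without control 3, which read 10.26. Groups without overlap and higher in soy occurred in 2 of these 9 genes, against 9.67% of all genes by their brightest probe.

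Outside the Cyp1 family, 2 of 17 measured genes listed as AHR targets rose and 0 fell, against 0.340% of named genes with a higher probe that passed. This list was written with earlier results of these data known, so its count is a description. Htatip2, a short-chain dehydrogenase-like protein, read 11.98, 11.38 and 11.87 in controls and 13.16, 13.12 and 13.57 in soy livers. It was 2.90-fold higher with an interval from 2.14 to 3.94 (adjusted p = 0.0306), and its second probe passed as well at 2.65-fold (adjusted p = 0.0167). Ugdh, which makes the UDP-glucuronic acid used for conjugation, read 14.39, 14.21 and 14.64 against 15.44, 15.31 and 15.65, 2.08-fold higher with an interval from 1.64 to 2.63 (adjusted p = 0.0401). The second Ugdh probe was at 2.31-fold and missed the threshold (adjusted p = 0.0684). The lowest soy array lay above the highest control array by 1.14 for Htatip2 and by 0.67 for Ugdh, and the changes within slides were 1.48 and 1.69 for Htatip2 and 1.14 and 1.01 for Ugdh. As background, Htatip2 and Ugdh are also known as targets of the oxidative stress factor NRF2.

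These calls did not hold under every setting. With all 6 arrays and a normexp offset of 16 both brightest probes missed the threshold (adjusted p = 0.0865 for Ugdh and 0.0572 for Htatip2). By its brightest probe Ugdh passed without control 3 only (1 of the 6 fits that left out an array) and Htatip2 in 0 of 6, with changes from 0.95 to 1.17 and from 1.36 to 1.65. With the slide as a block their adjusted p were 0.112 and 0.133. The folds of Ugdh and Htatip2 stayed about as large, at 2.08 and 2.92 with offset 16 and 2.13 and 2.97 with the slide as a block. The second Htatip2 probe held its call with offset 16 (adjusted p = 0.0357) and in 3 of the 6 fits that left out an array, those without a control, but not with the slide as a block (adjusted p = 0.121).

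Gsta2, a glutathione transferase, had the largest change of the list and did not pass. It read 13.09, 11.86 and 11.78 in controls and 15.10, 14.21 and 14.32 in soy livers, 4.93-fold higher with an interval from 2.67 to 9.08 (adjusted p = 0.0658), and passed when control 1 was left out (adjusted p = 0.0351). The genes of this family are close in sequence, and whether this probe also binds the transcripts of its relatives was not tested. Nqo1, a quinone reductase and a standard AHR and NRF2 target, read 8.09, 7.87 and 7.82 against 8.99, 8.40 and 8.59, a change of 0.73 (SE 0.17, adjusted p = 0.145). The organelle transporter gene Slc46a3 was nearest to no change at 0.10 (adjusted p = 0.866).

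Groups did not overlap in 9 of these 17 genes, with 8 higher in soy livers and 1 lower, against 9.67% and 10.8% of all genes. Besides the genes above, named here after their values were seen, Pmm1, Ugt1a6a, Nfe2l2 and Fgf21 were higher on all soy arrays, by 0.72, 0.50, 0.25 and 1.49, and Cyp2s1 was lower, at -0.48, with adjusted p between 0.145 and 0.549. Fgf21 was well above background on only 1 control array, so the size of its change is uncertain: it was 3.54 with the processed signal and between 1.08 and 1.86 with 1 array left out. The Nfe2l2 change was between 0.11 and 0.35 with 1 array left out. The median change of the list was 0.28, and 0.49 and 0.54 within the slides that held both groups. The 7 pathway members, Ahrr included, had a median of 0.046 by the brightest probe. This median is the value of Ahrr itself, which was well above background on 0 arrays, so its sign is not read. Of the 7 members 0 had groups without overlap, against 20.5% of all genes in either direction.

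**Figure D3:**
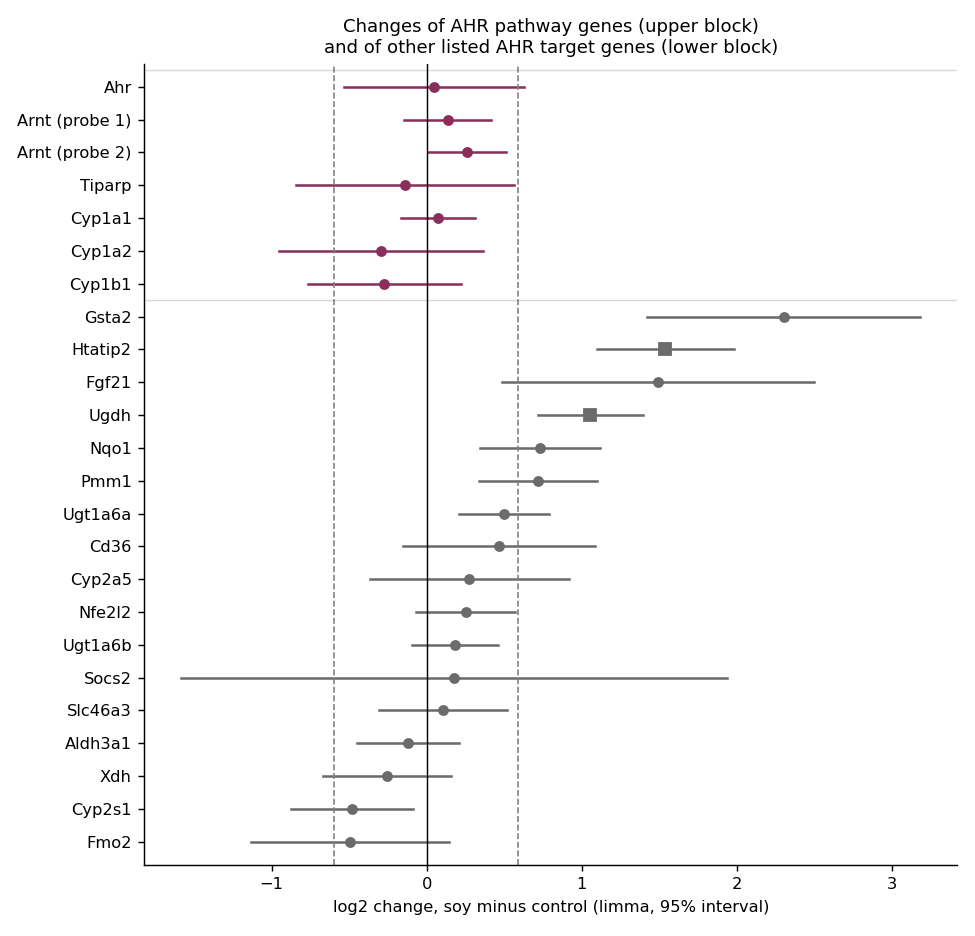
Log2 change, soy minus control (x axis), with its 95% interval for the 7 measured probes of the AHR pathway (upper block) and the brightest probe of 17 other listed AHR target genes (lower block). Squares passed the test, circles did not, and dashed lines mark the fold thresholds. Htatip2 and Ugdh are the squares, and the pathway members have changes from -0.29 to 0.26 with intervals that run from -0.95 to 0.63.

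P450 enzymes need electrons, which Por supplies directly and Cyb5a with Cyb5r3 in addition. Of these 3 genes 0 passed, with a median change of -0.12. Por read 16.59, 16.57 and 16.75 in controls and 16.55, 15.71 and 15.60 in soy livers, so that all soy arrays lay under all controls, soy 1 by little and the other two by more. The change was -0.68 (SE 0.24, adjusted p = 0.331), at -0.027 within the slide of soy 1 and -1.15 within that of soy 3. Cyb5a was at 0.22, with all soy arrays above all controls, and Cyb5r3 at -0.12 (adjusted p = 0.463 and 0.740). Groups without overlap occurred in 20.5% of all genes.

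Tryptophan breakdown supplies AHR ligands of the body's own. Of 10 enzymes of this route 0 passed, with a median change of 0.026, 3 with all soy arrays higher and 3 with all lower, against 9.67% and 10.8% of all genes. Ido1, 1 of the 3 lower, was well above background on 0 soy arrays. Kynu, which cleaves kynurenine, read 12.96, 13.11 and 13.06 in controls and 12.06, 12.59 and 12.63 in soy livers, with a difference of -0.61 (SE 0.16, adjusted p = 0.197). Il4i1, an amino acid oxidase that leads to indole ligands, read 7.61, 7.87 and 7.63 against 8.28, 8.12 and 8.27, a change of 0.52 (SE 0.11, adjusted p = 0.127). Ido2, an enzyme of the first step, was at 0.0047 (adjusted p = 0.995).

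Because Cyp1a2 is a gene of the central vein region, genes of the liver zones are given beside it. Of 10 pericentral genes 0 passed, 8 had a change under 0, as had 51.2% of all genes, and the median change was -0.18. Within slides the median of these genes was 0.030 with soy 1 and -0.43 with soy 3. Oat, an ornithine aminotransferase, read 15.49, 15.57 and 15.85 in controls and 14.81, 14.13 and 14.13 in soy livers. Its difference was -1.28 (adjusted p = 0.0591), whereas the Wnt pathway receptor Lgr5 was at 0.75 (adjusted p = 0.254) and Rgn at 0.10. The 8 periportal genes also had 0 that passed, 5 with a change under 0 and a median of -0.25, at -0.27 and -0.12 within the same slides. The gluconeogenic enzyme Pck1 read 17.81, 17.85 and 17.54 against 17.07, 16.74 and 16.84, a change of -0.84 (adjusted p = 0.0568), with the serine dehydratase Sds at -1.13 (adjusted p = 0.152) and the histidine ammonia-lyase Hal at 0.0026. Leaving out soy 1 let Oat pass (adjusted p = 0.0381), and leaving out control 3 let Sds pass (adjusted p = 0.0177). The part of zonal genes in the Cyp1a2 value was not tested.

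**Figure D4:**
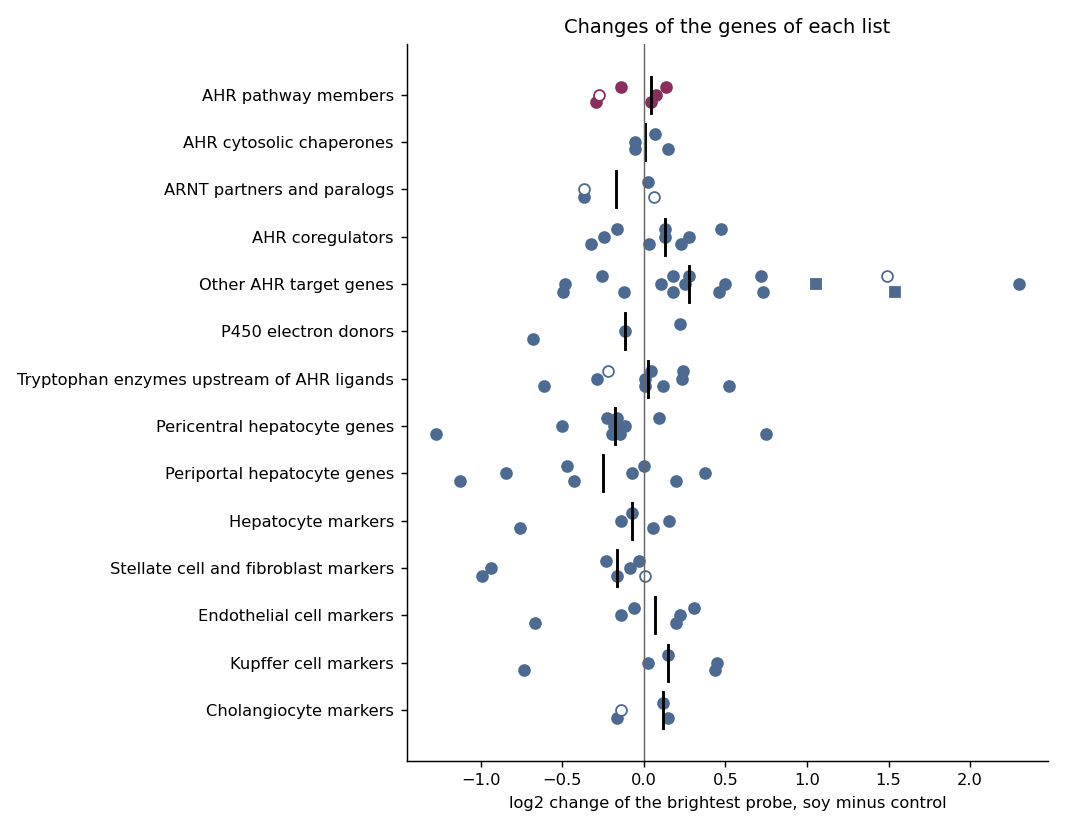
Log2 change of the brightest probe of each gene, soy minus control (x axis), by list, with a black bar at the median of the list. Filled points were well above background on all 6 arrays, open points on some, and squares passed the test. Genes not well above background on any array are not drawn. The 2 squares are both among the other AHR target genes.

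By their brightest probe 13500 of 22889 genes were well above background on all 6 arrays, so such a signal does not test the label of the tissue. All 5 hepatocyte genes gave a signal well above background on all 6 arrays. Of these 0 passed and the median change was -0.071, with the amino acid enzyme Tat at -0.76 (adjusted p = 0.323), Hpx at 0.15 and Ttr at 0.059, and their summed signal lay between 1250469 and 1350957 on all 6 arrays. Of 6 endothelial markers 0 passed, with a median of 0.067, Lyve1 at -0.66, Kdr at 0.31 and Stab2 at -0.062 (adjusted p = 0.655, 0.447 and 0.851). The Lyve1 value was -0.036 without control 1, which read 11.15 against 9.23 and 9.31 in the other controls. Of 5 Kupffer cell markers 0 passed, with a median of 0.15, Marco at -0.73, Cd5l at 0.45 and Adgre1 at 0.026 (adjusted p = 0.589, 0.539 and 0.978). The Marco value was -0.20 without control 3, which at 12.70 was the highest array, and the Cd5l value was 0.20 without control 1, which at 13.33 was the lowest. Of 5 cholangiocyte markers 0 passed, with a median of 0.12, Sox9 at -0.16, Spp1 at 0.15 and Krt19 at 0.12. With 1 array left out Sox9 ran from -0.27 to -0.050 and Spp1 from 0.020 to 0.36. The cholangiocyte gene Epcam was well above background on 0 arrays, and Krt7 on 0 soy arrays.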

How the data were processed

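The authors hybridised Cy3-labelled RNA of 6 livers on 1-colour Agilent G3 Mouse arrays and deposited scanner tables of Feature Extraction (version 11.5.1.1 in the headers) that hold, as intensity, unscaled medians of each spot and its local background and a processed signal. A table of log2 values made by the authors from these arrays was deposited too. Median intensities were corrected with normexp (offset 50), log2 transformed and then quantile normalised without control spots. Outlier spots were left out, and spots of a probe were averaged. No spot was saturated, and the number of arrays limits the precision. Of 56605 probes, 58.3% were named through RefSeq accessions.

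Soy was compared with control in limma 3.58.1 (lmFit, eBayes, R 4.3.3) with Benjamini-Hochberg adjustment over all probes and no covariate, as the study's methods name limma and median signals, and the scripts were tested on simulated data. Intervals are 95%. Tables and figures used Python 3.11.15, pandas 2.3.3 and matplotlib 3.10.9. The brightest probe stands for a gene in lists. A gene well above background in neither group gets no fold. Named genes were the members, list genes that passed, and otherwise the 2 largest and 1 smallest change per list among genes well above background on all arrays, plus the 3 nearest patterns. Some list genes are not reported here. Members and lists were chosen with earlier results of these data known. Alternatives were other background corrections, scalings and filters, robust eBayes, replicate and slide blocks, the authors' log2 values and leaving out each array.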

Additional observations from a re-analysis of the deposited data

How the results depend on the processing

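No AHR pathway gene passed under 17 of 18 alternatives. With Agilent's processed signal at a common 75th percentile 1 did, Ahrr by a probe below background on all arrays. Cyp1a1, Cyp1a2, Arnt and Cyp1b1 kept their direction wherever they could be fitted, though not their size. The change of Ahr ran from -0.26 to 0.25 and that of Tiparp from -0.33 to 0.14 when 1 array was left out, and Tiparp was at 0.20 with the slide as a block. The number of arrays, 3 a group, limits the size of change that can be resolved.

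Probes that passed, 198 of all, numbered 77 with normexp offset 16, 13138 with the processed signal, 299 with a 75th-percentile shift, 493 with only probes well above background, 24 with the slide block and 23 to 199 with 1 array left out. The share higher in soy was 90.8% with the processed signal, 67.6% with the shift and 45.8% with the slide block. Those 2 scalings moved the median change of all probes to 0.13 on the log2 scale. Genes of the 6 pathway lists that passed, 2 in the report, numbered 1 with offset 16, 7 with the processed signal, 0 with the slide block and 0 to 2 with 1 array left out. Of list genes that did not pass, Gsta2 passed under 4, Oat under 5, Pck1 under 6, Sds under 2 and Nqo1, Il4i1, Pmm1 and Ugt1a6a under 1 of 18 alternatives. The replicate block left 77 probes, and changed no call on a member. Same-numbered arrays deviated together by correlations of 0.12, -0.06 and 0.10, and arrays of different numbers by -0.21 to 0.10. With 3 arrays a group, and same-numbered arrays 1 and 3 also sharing slides, these values do not settle whether the numbers pair the mice. The labels do not tie them. Normexp on mean signals was not run, as the deposited columns used here hold medians.

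Of 51 genes outside the pathway whose change was recomputed under the alternatives, 30 moved by over 1.5 times or turned with 1 array left out, and directions turned as follows. With 1 array left out, Hsp90aa1 ran from -0.090 to 0.24, Hsp90ab1 from -0.21 to 0.19, Hif1a from -0.058 to 0.10, Ep300 from -0.095 to 0.10, Slc46a3 from -0.072 to 0.24, Ido2 from -0.22 to 0.14, Hal from -0.15 to 0.15, Hpx from -0.0042 to 0.29, Lrat from -0.24 to 0.16, Adgre1 from -0.22 to 0.23, Krt19 from -0.013 to 0.22, Nuak2 from -0.51 to 0.052, Vldlr from -0.65 to 0.024, Lrrc32 from -0.40 to 0.19, Sipa1l3 from -0.084 to 0.28 and Slc7a4 from -0.44 to 0.021. With the processed signal Hal was at -0.025, Lrat at 0.031 and Lrrc32 at 0.025. With the shift Ido2 was at -0.021, Hal at -0.023 and Lrat at 0.016, and with cyclic loess Ido2 was at -0.0028 and Hal at -0.00086. With the slide block Hsp90aa1 was at -0.065, Ep300 was at -0.028, Ido2 at -0.021, Hal at -0.031, Lrat at 0.20, Adgre1 at -0.012 and Lrrc32 at 0.15. With the mean of a gene's probes Ep300 was at -0.10, Ttr at -0.17, Adgre1 at -0.051 and Sox9 at 0.093. The causes of these turns were not tested.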
